A study of Arabidopsis thaliana with 24 samples.

Results

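The type-A cytokinin response regulators are 10 genes of Arabidopsis thaliana, ARR3 to ARR9 and ARR15 to ARR17, taken here by their locus codes as 10 of the 33602 loci counted by RNA sequencing. The samples were roots and shoots of seedlings aged 7 days, in 3 genotypes. WT stands for Col-0 wild type, pxy for the mutant line pxy-5, whose receptor kinase gene PXY is altered, and 41-OX for seedlings with constitutive CLE41, a peptide gene; the labels name neither the promoter of that transgene nor the number of lines. Each combination of genotype and organ had 4 biological replicates, and 22 of the 24 libraries were used, which left 3 libraries in WT shoots and in pxy roots and 4 in every other group. Left out were the library labelled pxy root replicate 2, whose summed shoot markers stood at 11180 CPM (the count as a share of the library's total, scaled as usual for sequencing) against 80.9 to 171.5 in the other pxy roots, and WT shoot replicate 2, which held 167131 counts in all.

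Cytokinin is perceived by histidine kinase receptors, and the phosphate passes through phosphotransfer proteins to response regulators in the nucleus. Type-B regulators bind DNA and switch on target genes, among them the type-A regulators, which have a receiver domain but no DNA-binding output and feed back to dampen the pathway. In the vascular cambium of Arabidopsis, CLE41 makes the peptide TDIF and PXY is its receptor, and ARR7 and ARR15 are known there as brakes on cell division that the kinase BIL1, itself restrained by PXY, helps to keep on.

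The 22 libraries held 7033091 to 12226066 counts on loci. CLE41 was 30.6 ± 3.07 CPM in 41-OX roots against 9.43 ± 0.873 in WT roots (SD, n = 4 each), and 28.7 ± 0.978 in 41-OX shoots (n = 4) against 19.0 ± 3.27 in WT shoots (n = 3). PXY was counted at 16.2 ± 3.08 CPM in pxy roots (n = 3) against 19.5 ± 3.85 in WT roots (n = 4), and at 40.3 ± 3.08 in pxy shoots (n = 4) against 10.2 ± 1.23 in WT shoots (n = 3), so this count does not check the mutant label. Root markers summed to 1014 to 1355 CPM in root libraries and shoot markers to 9890 to 15000 CPM in shoot libraries. In seedling organs made of many cell types, fewer cells that express a gene and less RNA of it per cell cannot be told apart.

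The 10 proteins fall into 5 pairs of closest relatives, with 79.1% identical residues in ARR3 and ARR4, 81.4% in ARR5 and ARR6, 72.3% in ARR7 and ARR15, 74.4% in ARR8 and ARR9, and 86.6% in ARR16 and ARR17. Within these pairs the longest stretch of identical exon sequence was 17 to 41 bases. The sequences below are the 250 bases before the annotated start of 5 genes, read 5′ to 3′ on the gene's strand from the TAIR10.1 genome with its RefSeq annotation; no other annotated gene overlaps them. ARR5, ARR6, ARR7 and ARR15 are shown because their levels fell in 41-OX shoots and varied together among shoot libraries, and ARR3 because it rose there. Capitals mark matches, on either strand, to the core letters AGATT and GGATT, to which type-B regulators are known to bind in Arabidopsis, and to the longer forms AGATCT and AGATACG.
ARR3, chr1:22067234-22067483, minus strand: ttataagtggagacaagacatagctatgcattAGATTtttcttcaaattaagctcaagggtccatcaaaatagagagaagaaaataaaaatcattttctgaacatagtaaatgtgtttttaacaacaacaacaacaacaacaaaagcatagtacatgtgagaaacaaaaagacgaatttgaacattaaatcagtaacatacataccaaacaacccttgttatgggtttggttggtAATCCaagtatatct
ARR5, chr3:17760951-17761200, minus strand: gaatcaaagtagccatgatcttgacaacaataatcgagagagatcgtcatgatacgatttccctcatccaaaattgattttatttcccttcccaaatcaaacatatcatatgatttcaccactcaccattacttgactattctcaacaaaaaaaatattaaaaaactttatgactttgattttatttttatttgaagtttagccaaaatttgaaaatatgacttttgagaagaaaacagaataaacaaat
ARR6, chr5:25254319-25254568, minus strand: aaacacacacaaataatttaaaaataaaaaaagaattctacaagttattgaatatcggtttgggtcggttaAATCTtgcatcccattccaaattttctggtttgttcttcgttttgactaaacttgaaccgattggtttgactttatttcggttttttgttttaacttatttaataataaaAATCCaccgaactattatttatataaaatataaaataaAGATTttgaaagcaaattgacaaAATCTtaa
ARR7, chr1:6579315-6579564, minus strand: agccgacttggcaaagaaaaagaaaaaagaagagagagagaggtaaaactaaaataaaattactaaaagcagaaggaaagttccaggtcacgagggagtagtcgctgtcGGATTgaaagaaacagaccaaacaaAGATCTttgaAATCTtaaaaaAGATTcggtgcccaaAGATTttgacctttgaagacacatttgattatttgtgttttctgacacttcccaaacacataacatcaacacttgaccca
ARR15, chr1:28133026-28133275, minus strand: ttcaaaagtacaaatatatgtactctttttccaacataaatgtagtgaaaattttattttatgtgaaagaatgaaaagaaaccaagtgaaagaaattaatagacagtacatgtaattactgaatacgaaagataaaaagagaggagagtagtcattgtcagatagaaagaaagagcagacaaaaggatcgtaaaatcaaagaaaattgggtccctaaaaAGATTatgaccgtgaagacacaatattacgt

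AGATT was found before 7 of the 10 genes, against 63.7% of the 27443 promoters of the same length in the genome, and GGATT before 6 of 10, against 38.0%. AGATCT was found before 1 of the 10, ARR7, against 5.98% of all promoters. AGATACG was found before none of them, against 1.69%; AGATCT reads the same on both strands and shares its first letters with AGATT. The window of ARR7 held 3 matches to AGATT, 1 to GGATT and 1 to AGATCT, and that of ARR6 held 3 to AGATT and 1 to GGATT, while the window of ARR5 held no match to any of these letters. A match is a run of letters and was not tested as a binding site.

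**Figure D1:**
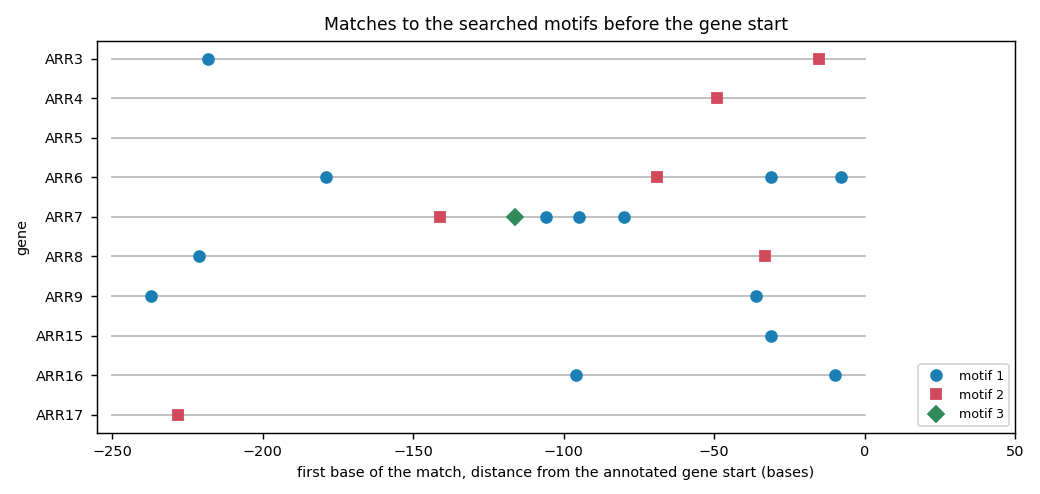
Positions of the matches in the 250 bases before each gene (x axis, first base of the match, bases from the annotated start; y axis, gene). Motif 1 is AGATT, motif 2 GGATT and motif 3 AGATCT; ARR7 holds its 3 matches to motif 1 between -106 and -80, and the ARR5 line is empty.

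Roots and shoots differed in which regulators stood high, also between closest relatives. ARR3 (AT1G59940, chr1:22065617-22067233), which with ARR4 is known to affect the period of the circadian clock, was a root gene in WT. Its levels were 44.3, 44.7, 36.9 and 44.4 CPM in the 4 WT roots and 0.651, 1.09 and 1.02 CPM in the 3 WT shoots, a log2 difference of 5.49 (SE 0.19; adjusted p = 5.72e-17, edgeR quasi-likelihood test with Benjamini-Hochberg adjustment, as for every adjusted p below unless another tool is named). ARR4 (AT1G10470, chr1:3441988-3444360), known to bind the light receptor phytochrome B, differed less, at 101.2 ± 5.71 CPM in WT roots (SD, n = 4) and 73.8 ± 21.0 in WT shoots (n = 3). The groups did not overlap, at 95.25 to 108.6 CPM in WT roots and 51.2 to 92.7 in WT shoots. ARR4 did not pass the test (log2 difference 0.45, SE 0.22, adjusted p = 0.0688). It was called without WT shoot replicate 3 (adjusted p = 0.0231) and in DESeq2 (adjusted p = 0.0419). Per kilobase of exon, ARR3 stood at 0.544 to 0.752 of ARR4 in WT roots and at 0.0134 to 0.0320 of it in WT shoots.

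ARR8 and ARR9 also differed from each other by organ, here in opposite directions. ARR8 (AT2G41310, chr2:17221840-17224880) was at 152.4, 159.1, 150.2 and 163.6 CPM in WT roots and at 60.1, 57.8 and 55.3 CPM in WT shoots (log2 difference 1.44, SE 0.10, adjusted p = 3.10e-12). ARR9 (AT3G57040, chr3:21109059-21111567) went the other way, with 86.3, 81.0, 89.7 and 88.4 CPM in WT roots and 176.0, 180.0 and 147.7 CPM in WT shoots (log2 difference -0.96, SE 0.09, adjusted p = 2.96e-10). The ratio of ARR8 to ARR9 per kilobase was 1.34 to 1.57 in WT roots and 0.257 to 0.299 in WT shoots, with no overlap.

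ARR7 (AT1G19050, chr1:6577833-6579314) and its partner ARR15 (AT1G74890, chr1:28131447-28133025), both known as direct targets of repression by the stem cell regulator WUSCHEL, were higher in shoots in WT. ARR7 was at 17.2, 9.57, 22.05 and 14.5 CPM in WT roots and at 74.9, 98.3 and 40.6 CPM in WT shoots (log2 difference -2.17, SE 0.38, adjusted p = 4.19e-05). ARR15 was read at 0.689 to 1.90 CPM in WT roots and at 4.29, 8.65 and 0.731 CPM in WT shoots (log2 difference -1.82, SE 0.46, adjusted p = 0.00101), so 1 of the 3 shoots lay inside the root range, and without WT shoot replicate 3 the adjusted p was 0.0877. ARR17 (AT3G56380, chr3:20905264-20906397) was low everywhere but higher in WT roots, with 28, 31, 11 and 32 reads there and 1, 1 and 2 reads in WT shoots (log2 difference 3.64, SE 0.71, adjusted p = 5.61e-05); it passed the low-count filter of that fit through the roots. ARR16 (AT2G40670, chr2:16969673-16972113), known with ARR17 for a part in divisions of the stomatal lineage, was at 8.41 ± 1.67 CPM in WT roots (n = 4) and 8.12 ± 2.23 in WT shoots (n = 3) and did not pass (adjusted p = 0.937).

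ARR5 (AT3G48100, chr3:17758427-17760950), whose promoter is a standard reporter of cytokinin response, and ARR6 (AT5G62920, chr5:25252007-25254318) stood in both organs. ARR5 was 86.5 ± 3.78 CPM in WT roots (n = 4) and 105.4 ± 25.2 in WT shoots (n = 3), with 1 shoot below most of the roots; the log2 difference of -0.29 (SE 0.13) had an adjusted p of 0.0489 and was not called under 4 of the 7 other settings or in 16 of the 22 fits that left out a library, and leaving out WT shoot replicate 3 gave an adjusted p of 0.551. ARR6 was 56.9 ± 1.78 CPM in WT roots and 59.5 ± 23.1 in WT shoots (adjusted p = 0.715). ARR6 overlaps a counted gene on the other strand, AT5G62910, and ARR8 and ARR9 each overlap an annotated noncoding RNA on the other strand; without a stated strand setting such reads cannot be told apart. In WT, 3 of the 10 genes, ARR17 among them, were therefore called higher in roots and 4 lower. The background was 39.5% higher and 40.7% lower over the 21397 loci tested.

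Per kilobase of exon, ARR8 led in roots of every genotype, at 66.0 ± 2.60 CPM per kilobase in WT, followed by ARR5 at 59.7 ± 2.61, ARR4 at 48.2 ± 2.72, ARR9 at 45.6 ± 2.02, ARR6 at 39.0 ± 1.22 and ARR3 at 32.5 ± 2.89 (SD, n = 4). ARR4 and ARR9 overlapped in that order, as did ARR16 and ARR17 near its end. The overlap of ARR16 and ARR17 depends on the exon lengths used. Before division by length they stood at 6.19 to 10.14 and 0.842 to 2.94 CPM in WT roots. Per kilobase of coding sequence their means there were 16.9 and 4.77. ARR9 had the highest mean in shoots of every genotype, at 88.6 ± 9.30 CPM per kilobase in WT (n = 3), and the next in WT, ARR7 at 75.6 ± 30.8 and ARR5 at 72.7 ± 17.4, overlapped each other and ARR9: in WT shoot replicate 3 ARR7 stood at 104.3 CPM per kilobase and ARR9 at 95.0. ARR3 took 10.3% of the 10 genes' summed level per kilobase in WT roots and 0.214% in WT shoots.

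**Figure D2:**
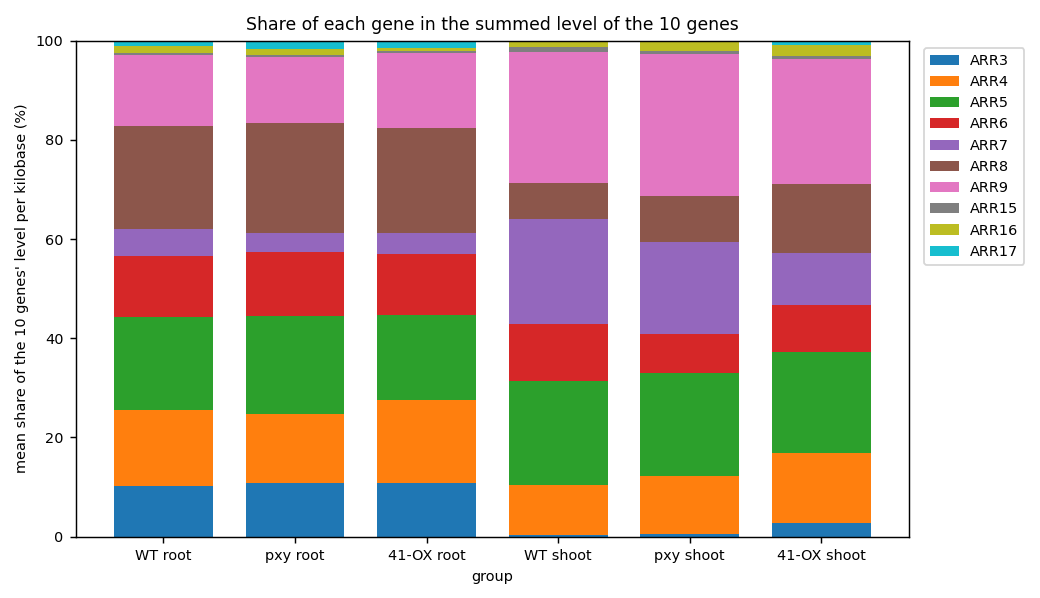
Mean share of each gene in the summed level per kilobase of the 10 genes (y axis, percent) in the 6 groups of genotype and organ (x axis). In shoots the ARR7 share falls from 21.2% in WT to 10.5% in 41-OX, while the ARR8 share goes from 7.32% to 13.7%; the 3 root columns look alike.

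**Figure D3:**
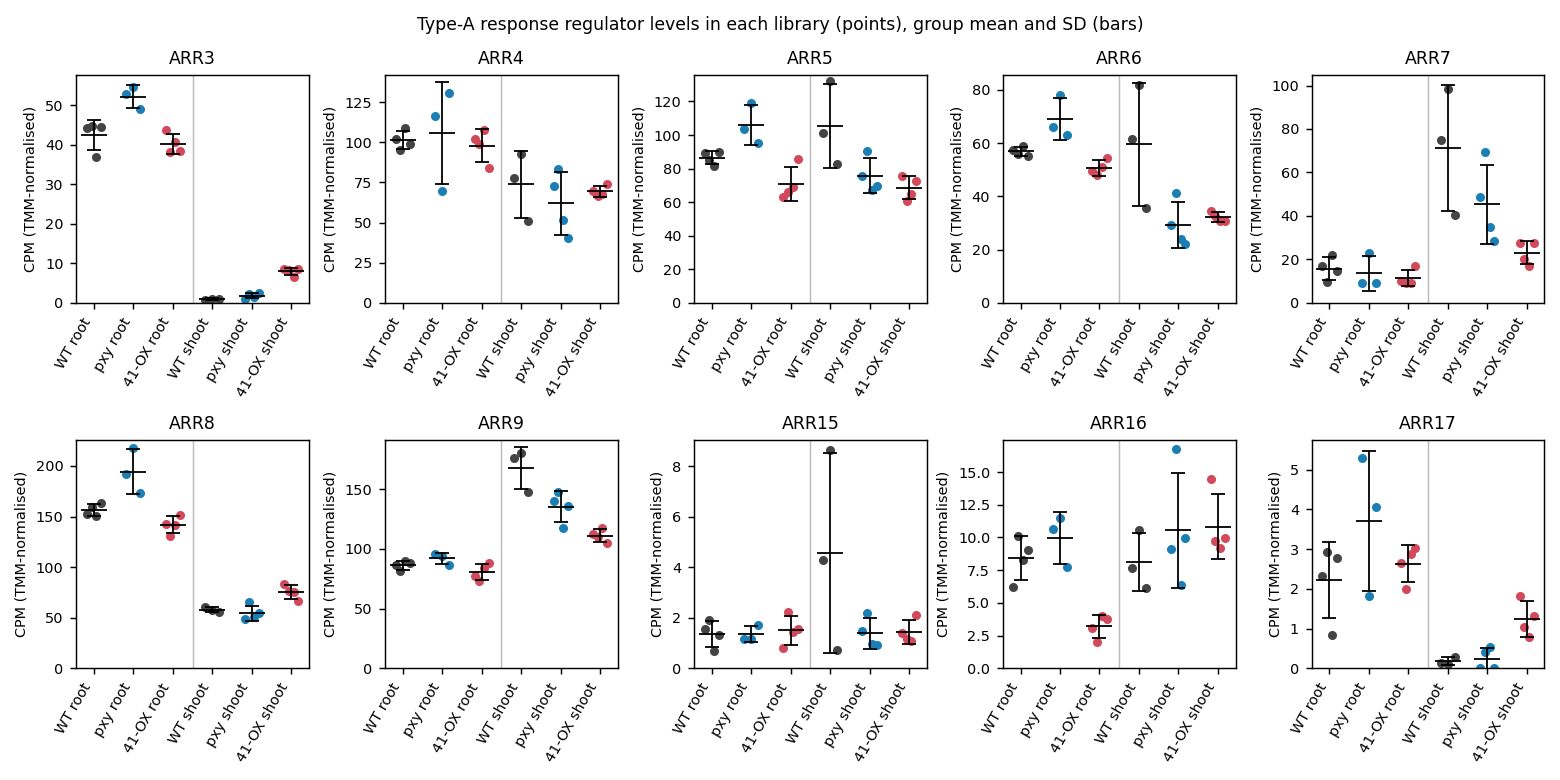
Level of each gene in each library (points, CPM after TMM normalisation, linear axis from 0) by group, with mean and SD (bars; n = 3 in WT shoots and pxy roots, 4 elsewhere). ARR3 lies between 0.651 and 1.09 CPM in WT shoots and between 6.69 and 8.63 in 41-OX shoots, and ARR16 between 1.99 and 3.97 CPM in 41-OX roots against 6.19 to 10.14 in WT roots.

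In shoots with constitutive CLE41, 2 of the 9 regulators tested against WT rose and 5 fell, against a background of 15.1% higher and 15.8% lower over 20163 loci. ARR3 rose most, from 0.651, 1.09 and 1.02 CPM in WT shoots to 8.58, 8.22, 6.69 and 8.63 CPM in 41-OX shoots (log2 change 3.10, SE 0.29, adjusted p = 3.51e-08). The groups did not overlap, and the 41-OX shoots still lay below every root, whose lowest value was 36.9 CPM. ARR8 rose from 60.1, 57.8 and 55.3 CPM to 83.7, 76.8, 75.1 and 66.4 CPM, again with no overlap (log2 change 0.40, SE 0.10, adjusted p = 0.00292). ARR17 had too few reads for this test, with 1, 1 and 2 reads in WT shoots and 13, 9, 5 and 10 in 41-OX shoots.

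Markers of root cells moved in the same libraries. All 9 root markers tested, of 11 listed, were higher in 41-OX shoots than in WT shoots, with a median log2 change of 2.76, and the summed root markers were 173.1 to 235.7 CPM in 41-OX shoots, 34.3 to 53.8 in WT shoots and 1014 to 1166 in WT roots. The part of this in the higher ARR3, ARR8 and ARR17 was not tested.

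The regulators that fell in 41-OX shoots were ARR5, ARR6, ARR7, ARR9 and ARR15. ARR9 went from 176.0, 180.0 and 147.7 CPM in WT to 112.5, 110.0, 117.3 and 104.5 CPM in 41-OX (log2 change -0.59, SE 0.09, adjusted p = 1.51e-05), and no 41-OX shoot reached the lowest WT shoot. ARR7 went from 74.9, 98.3 and 40.6 CPM to 27.6, 20.1, 17.1 and 27.5 CPM (log2 change -1.63, SE 0.38, adjusted p = 0.0112), and ARR5 from 101.2, 132.4 and 82.5 CPM to 75.8, 61.0, 65.2 and 72.6 CPM (log2 change -0.62, SE 0.14, adjusted p = 0.00358). Neither overlapped its WT group. ARR6 went from 61.4, 81.6 and 35.5 CPM to 34.6, 32.6, 30.8 and 30.9 CPM (log2 change -0.89, SE 0.27, adjusted p = 0.0350), with 1 WT shoot just above the 41-OX range.

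ARR15 fell from 4.29, 8.65 and 0.731 CPM to 1.41, 1.16, 1.09 and 2.09 CPM (log2 change -1.73, SE 0.57, adjusted p = 0.0364), with the lowest value of all in a WT shoot. Without WT shoot replicate 3, the library with the highest value, its log2 change was -0.83 with an adjusted p of 0.235; ARR6 in that fit had a log2 change of -0.59 and an adjusted p of 0.0863. ARR6 and ARR15 each lost the call in 7 of the 11 fits that left out a shoot library; ARR3, ARR5, ARR7, ARR8 and ARR9 kept it in all 11. ARR4 (log2 change -0.09, SE 0.25) and ARR16 (0.39, SE 0.27) did not pass, with adjusted p-values of 0.833 and 0.309. Shoot meristem markers, which include WUSCHEL, summed to 26.3 to 32.9 CPM in 41-OX shoots and 21.9 to 29.7 in WT shoots. Only 2 of the 5 loci in this list had enough reads for the test, and neither was called. In single libraries of these groups up to 2 of the 5 had no reads, so the sum does not measure WUSCHEL itself.

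Against pxy shoots rather than WT shoots, ARR3 was again higher in 41-OX (log2 change 2.09, SE 0.23, adjusted p = 7.14e-07), as was ARR8 (0.47, SE 0.09, adjusted p = 0.000363), and ARR9 was lower (-0.28, SE 0.08, adjusted p = 0.0124). ARR7 had a log2 change of -0.97 (SE 0.38) that did not pass (adjusted p = 0.0887) but was called in DESeq2 (adjusted p = 0.0286), without robust dispersions (0.00692), with only the compared groups (0.0348) and without WT shoot replicate 4 (0.0438). ARR5, ARR6 and ARR15 had log2 changes of -0.14, 0.15 and 0.08, none of which passed. These 2 higher and 1 lower of 9 stand beside a background of 14.5% higher and 14.7% lower. The comparisons with WT and with pxy share the 41-OX libraries, so they are no separate evidence. Without pxy shoot replicate 2 the ARR9 call was lost (adjusted p = 0.0646).

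**Figure D4:**
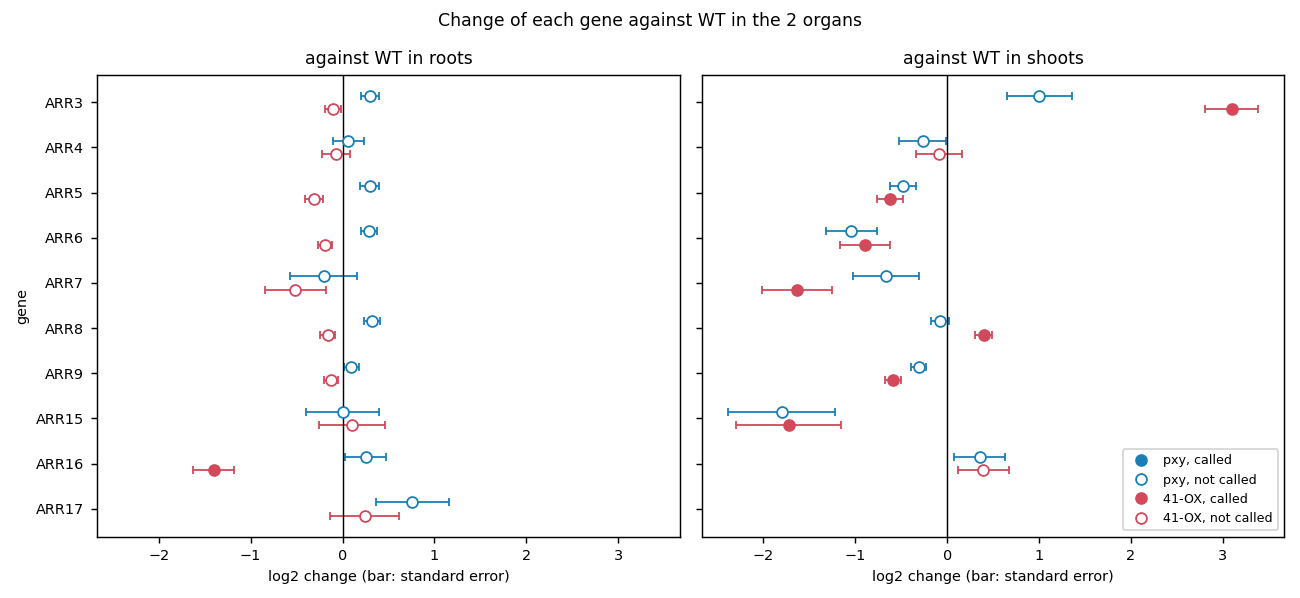
Log2 change against WT (x axis; bars, standard error) of each gene (y axis) in roots and shoots for pxy and 41-OX; filled points passed the adjusted p threshold of 0.05, and ARR17 was not tested in shoots. In 41-OX shoots ARR3 lies at 3.10 and ARR7 at -1.63, whereas in 41-OX roots ARR16, at -1.40, is the filled point.

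In 41-OX roots 1 of the 10 genes, ARR16, was lower than in WT roots and none was higher, against a background of 1.92% higher and 4.65% lower over 20300 loci. ARR16 was at 6.19, 10.14, 8.27 and 9.04 CPM in WT roots and at 3.09, 1.99, 3.97 and 3.76 CPM in 41-OX roots (log2 change -1.40, SE 0.22, adjusted p = 0.00155). Every 41-OX root lay below every WT root, whereas in shoots ARR16 was at 10.8 ± 2.46 CPM in 41-OX (n = 4). ARR5 had the next clearest value, with a log2 change of -0.31 (SE 0.10) and an adjusted p of 0.0840. It was called in DESeq2 (adjusted p = 0.0432), with only the compared groups, without pxy root replicate 3 and without 41-OX root replicate 4. 41-OX root replicate 4 held summed shoot markers of 1865 CPM against 118.7 to 408.6 in the other 41-OX roots. Its ARR5 level was 85.8 CPM against 63.2 to 69.1 in those roots, and the part of the markers in this was not tested. ARR16's closest relative ARR17 stood at 2.64 ± 0.457 CPM in 41-OX roots and 2.22 ± 0.955 in WT roots (n = 4 each; adjusted p = 0.795).

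Set against pxy roots, 41-OX roots were lower in 5 of the 10 genes and higher in none, against a background of 6.67% lower and 3.1% higher. ARR16 led (log2 change -1.66, SE 0.24, adjusted p = 0.000579; 10.7, 11.5 and 7.74 CPM in pxy), followed by ARR5 (-0.61, SE 0.11, adjusted p = 0.00246), ARR8 (-0.48, SE 0.09, adjusted p = 0.00290), ARR6 (-0.48, SE 0.09, adjusted p = 0.00327) and ARR3 (-0.40, SE 0.09, adjusted p = 0.0173). ARR5 was at 103.8, 119.0 and 95.2 CPM in pxy roots and at 63.2, 65.9, 69.1 and 85.8 CPM in 41-OX roots, with no overlap. ARR8 was at 192.2, 217.3 and 173.4 CPM in pxy roots and at 142.9, 130.9, 141.7 and 152.0 CPM in 41-OX roots, again apart. WT roots lay between the other genotypes in mean level for ARR3, ARR4, ARR5, ARR6, ARR8, ARR9 and ARR16. The ARR3 call was lost without pxy root replicate 1, with a replicate block (adjusted p = 0.0610) and when only these groups were fitted (adjusted p = 0.0540). The ARR6 call was lost with all 22 libraries in 1 fit (adjusted p = 0.107). With all labelled libraries put back, ARR16 alone of the 5 kept its call.

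The pxy mutant on its own gave no call among the regulators. In roots none of the 10 passed edgeR's test against WT, at a background of 0.0394% of loci (8 of 20300). DESeq2 called 1, ARR8, among 89 loci in all. An unadjusted p under 0.05 was found for 4 of the 10, with no share of all loci at that p to set beside it. Those 4, ARR3, ARR5, ARR6 and ARR8, lay above every WT root in all 3 pxy roots, with log2 changes of 0.30, 0.30, 0.29 and 0.32; 5.39% of all loci tested were higher in pxy roots with no overlap of the groups. In the same comparison the 10 root markers tested all had positive log2 changes (median 0.20) and the 7 shoot markers tested all had negative ones (median -1.10), with none called, and the median of the 10 regulators was 0.27; the part of the markers in these values was not tested. The summed level of the 10 genes was 620.4 to 670.4 CPM in pxy roots, 546.0 to 567.4 in WT roots and 469.9 to 527.6 in 41-OX roots, which is a description without a test.

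In shoots none of the 9 genes tested passed edgeR's test between pxy and WT, at a background of 1.7% of loci. DESeq2 called 3, ARR5, ARR6 and ARR9. Over the alternative settings, DESeq2 among them, 143 to 514 loci were called in all. An unadjusted p under 0.05 was found for 5 of the 9, with no share of all loci at that p to set beside it. In edgeR ARR9 came closest, with 140.4, 147.3, 117.0 and 135.8 CPM in pxy shoots below the 3 WT shoots (log2 change -0.31, SE 0.09, adjusted p = 0.0665). ARR6 had a log2 change of -1.04 (SE 0.28, adjusted p = 0.120) and ARR15 of -1.80 (SE 0.58, adjusted p = 0.175). WT shoot replicate 4 held the lowest WT values of these genes. Without it 4 of the 9 genes were called, ARR5, ARR6, ARR9 and ARR15, all lower in pxy. That fit called 397 loci in all, against 343 in the main fit. Leaving out the lowest WT values raises the WT mean, so this fit leans towards lower values in pxy. ARR3 was at 0.978, 2.19, 1.63 and 2.58 CPM in pxy shoots, partly above WT (log2 change 1.00, SE 0.36, adjusted p = 0.187), and ARR7 at 48.6, 69.5, 35.0 and 28.6 CPM overlapped WT.

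The organ comparison was also made in the other genotypes. In pxy 6 of the 10 genes were higher in roots and 2 lower, at a background of 39.6% and 40.2%, and in 41-OX 5 were higher and 3 lower, at 39.1% and 39.6%. Both counts of higher genes include ARR17, which passed the low-count filter of this fit through the roots. ARR15 was level between organs in both, with log2 differences of -0.022 in pxy (adjusted p = 0.9745) and 0.015 in 41-OX (adjusted p = 0.9794). ARR4, not called in WT, was higher in roots of pxy (0.77, adjusted p = 0.00352) and of 41-OX (0.49, adjusted p = 0.0337). The ARR4 call in 41-OX was kept in 16 of the 22 fits that left out a library. ARR3 narrowed from a log2 root to shoot difference of 5.49 in WT to 2.32 in 41-OX, and ARR16, level between organs in WT, was lower in roots of 41-OX by a log2 difference of -1.74 (SE 0.27, adjusted p = 3.60e-06). The test of whether the change from WT to 41-OX differed between organs called 4 of the 10 genes. The root minus shoot difference was negative for ARR3 (-3.17, adjusted p = 2.56e-08), ARR16 (-1.76, adjusted p = 0.00214) and ARR8 (-0.53, adjusted p = 0.00646), and positive for ARR9 (0.50, adjusted p = 0.00427). Of these 4, ARR16 alone was called in roots. ARR3 (-0.10) and ARR8 (-0.16) were not called in roots and were higher in shoots. ARR9 had log2 changes of -0.12 in roots, not called, and -0.59 in shoots. In edgeR the background of this test was 9.78% lower and 6.19% higher. DESeq2, with 3785 loci called in all, also called ARR6 (0.72, adjusted p = 0.0448) and ARR17 (-2.66, adjusted p = 0.0286). ARR17 had too few reads for the shoot test, so its call here is no support for a difference between organs. For pxy the same test called none of the 10 in edgeR, at a background of 0.00935%. DESeq2 called 2 of them, among 47 loci in all. Of the 10, 6 had an unadjusted p under 0.05, with no share of all loci at that p to set beside it.

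Libraries of 1 group differed from each other in a shared way for several regulators. After each group's mean was taken off the log2 levels, ARR5 and ARR6 correlated at Pearson's r of 0.83 over the 22 libraries, ARR5 and ARR7 at 0.78, and ARR6 and ARR7 at 0.76, while ARR3 and ARR4 stood at -0.29. Over the 45 pairs of genes the median was 0.34. These values describe libraries that share depth and handling, and carry no test. In WT shoots, replicate 3 was the highest and replicate 4 the lowest for ARR4, ARR5, ARR6, ARR7, ARR9, ARR15 and ARR16, and the ARR7 level differed between them from 98.3 to 40.6 CPM. ARR8 was at 57.8 and 55.3 CPM in those WT libraries, but in pxy shoot replicate 2 it deviated from its group mean by 0.26, as ARR5 did, and over the 22 libraries ARR5 and ARR8 had an r of 0.52.

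**Figure D5:**
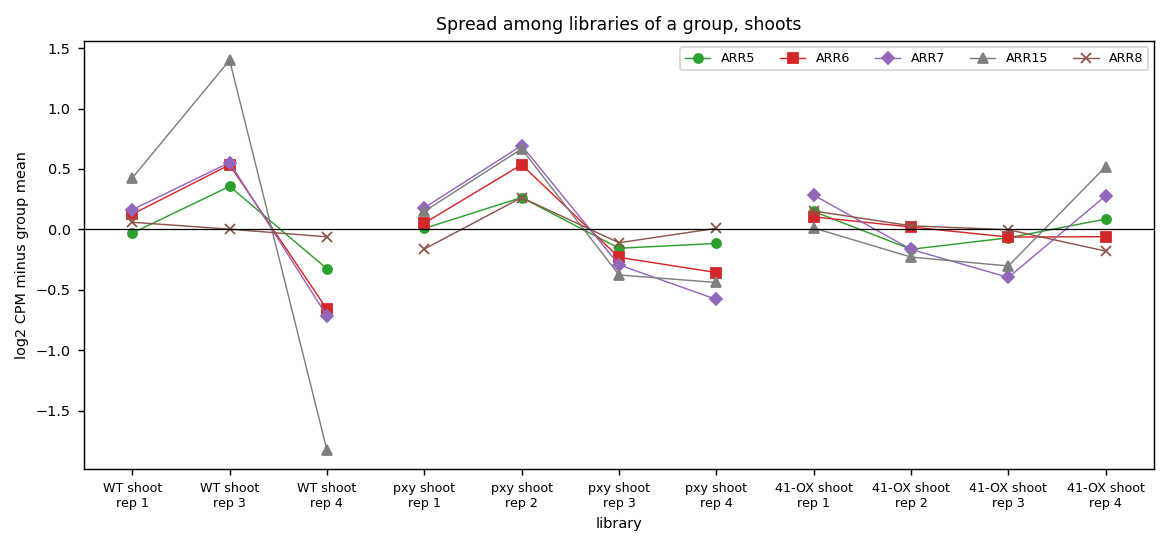
Log2 CPM of 5 genes minus the gene's group mean (y axis) in each of the 11 shoot libraries (x axis; lines join libraries of a group, which have no order). ARR5, ARR6, ARR7 and ARR15 are high together in WT shoot replicate 3 and pxy shoot replicate 2 and low together in WT shoot replicate 4; ARR8 stays near 0 in WT and is high with them in pxy shoot replicate 2. ARR9, not drawn, deviates by 0.11 in WT shoot replicate 3, 0.13 in pxy shoot replicate 2 and -0.18 in WT shoot replicate 4.

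The genes whose log2 levels over the 22 libraries were most like those of a regulator, out of 21387 loci, are given as a description; the 22 libraries are of both organs, so the organ enters each r. For ARR3 they were WIH3 (AT3G49845, r = 0.997) and GH9C1 (AT1G48930, r = 0.994). For ARR9 they were AT5G54585 (r = 0.984) and NUDT4 (AT1G18300, r = 0.971), and for ARR7 AT1G29530 (r = 0.946) and GDPD4 (AT1G71340, r = 0.941). For ARR5 they were AT3G10930 (r = 0.856) and AT5G52750 (r = 0.855).

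Of 42 other cytokinin genes tested in 41-OX shoots against WT, 5 (11.9%) were higher and 10 (23.8%) lower, beside the 15.1% and 15.8% of all loci. Among 3 receptors, AHK4 was higher than in WT (log2 change 0.61, SE 0.13, adjusted p = 0.00101) and AHK3 lower (-0.25, SE 0.09, adjusted p = 0.0427). Of 5 phosphotransfer proteins tested, AHP1 was higher (0.64, SE 0.08, adjusted p = 3.66e-06) and AHP5 lower (-0.48, SE 0.08, adjusted p = 3.24e-05). Of 6 type-B regulators tested, ARR2 was higher (0.29, adjusted p = 0.0432) and ARR11 (-0.50, adjusted p = 0.00149) and ARR14 (-0.41, adjusted p = 0.00294) lower. The median over the type-B list was -0.15, over the type-A genes tested -0.59, and over all loci 0.00. The type-C regulators, 2 loci, had no reads in any of the 22 libraries.

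Among 5 cytokinin oxidases tested, which degrade the hormone, CKX4 (log2 change -1.09, SE 0.31, adjusted p = 0.00914) and CKX7 (-0.98, SE 0.18, adjusted p = 0.000160) fell in 41-OX shoots and none rose. Of 13 synthesis genes tested, the hydroxylase gene CYP735A2 rose (0.67, adjusted p = 0.0161) and LOG1, which releases active cytokinin, fell (-0.57, adjusted p = 8.62e-06). Among 6 cytokinin response factors, CRF1 rose (0.93, adjusted p = 0.0105) and CRF2 fell (-0.70, adjusted p = 0.00876), and among 4 other cytokinin-induced genes the GATA factor gene CGA1 (-0.95, adjusted p = 0.00160) and the auxin repressor gene SHY2 (-0.53, adjusted p = 1.49e-05) fell. Without WT shoot replicate 3 the CKX4 and CRF2 calls were lost, with adjusted p-values of 0.0621 and 0.186. Leaving out any 1 of the 3 WT shoots ended the calls of ARR2 and AHK3, and leaving out replicate 3 or 4 that of CYP735A2.

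Against pxy shoots, 5 of the 42 genes (11.9%) were higher in 41-OX shoots and 9 (21.4%) lower, beside 14.5% and 14.7% of all loci. AHK4 was higher (log2 change 0.62) as 1 of 3 receptors. Of 5 phosphotransfer proteins AHP1 was higher (0.46) and AHP5 (-0.38) and AHP2 (-0.29) lower, and of 6 type-B regulators ARR11 (-0.66) and ARR14 (-0.47) were lower. Of 13 synthesis genes 2 were higher, CYP735A2 (1.04) and LOG3 (0.89), and 2 lower, among them LOG1 (-0.48). CRF3 was higher (0.85; not called in DESeq2 or without pxy shoot replicate 2 or 3, or 41-OX shoot replicate 2 or 4), and CKX7 (-0.74), CGA1 (-0.77) and SHY2 (-0.61) were lower. In 41-OX roots against WT, 1 of the 42 genes was higher and 1 lower (2.38% each). CKX4 fell (log2 change -1.51, SE 0.22, adjusted p = 0.000732) as 1 of 6 oxidases tested, and IPT3, which starts cytokinin synthesis, rose (0.93, SE 0.21, adjusted p = 0.0189) as 1 of 14 synthesis genes; no receptor, phosphotransfer protein, type-B regulator or response factor was called. The IPT3 call was lost in 5 of the 11 fits that left out a library, among them WT root replicates 2, 3 and 4. Against pxy roots, 4 of the 42 genes (9.52%) were higher and 6 (14.3%) lower, among them 3 synthesis genes higher and 4 lower. AHP1 (-0.77), CKX4 (-1.23) and LOG2 (-1.24) were lower in 41-OX and IPT3 (1.15) and CYP735A2 (0.81) higher, with adjusted p-values of 0.00384, 0.00469, 0.00511, 0.00897 and 0.00574. GNC, a relative of CGA1 that stood lower in WT roots than in WT shoots by a log2 difference of -5.51, was higher there by 3.29 (adjusted p = 0.00446), in 41-OX roots whose summed shoot markers ranged from 118.7 to 1865 CPM against 73.9 to 153.2 in pxy roots; their part in the GNC value was not tested. Between pxy and WT no gene of these 8 lists was called in either organ.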

How the data were processed

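RNA sequencing libraries of seedling roots and shoots were prepared by the protocol of Kumar and colleagues, per the labels. The deposited values are raw read counts per locus; CASAVA, TopHat2, HTSeq and the build TAIR10 are named, without versions, per the submitters' processing notes. Strand setting, treatment of reads with several matches and pooling of the technical replicates are not given in the sources used here, so reads of ARR6, ARR8 and ARR9 cannot be told apart from those of genes that overlap them on the other strand. Lines for reads with no feature (1.82% to 3.41%) or ambiguous (1.80% to 2.61%) were left out.

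From the counts, edgeR 4.0.16 in R 4.3.3 (low-count filter by group, TMM factors, robust quasi-likelihood F-test, two-sided, Benjamini-Hochberg over all loci tested, threshold 0.05) was fitted on the 11 root libraries, on the 11 shoot libraries, and on all 22 for organ differences. All 10 regulators passed the filter in roots and 9 in shoots. SE is the log2 change divided by the root of F. Levels are CPM with TMM factors of the 22 libraries; per-kilobase levels use TAIR10.1 exon lengths. The fits were tested on simulated data. Alternatives were other filters and size factors, DESeq2 1.42.0, a replicate block, other sets of libraries and leaving out each library. P-values measure the spread between the labelled biological replicates. Text names all 10 regulators, up to 3 called genes per other cytokinin list and comparison by adjusted p, and the 2 most alike loci of 4 regulators. The members, lists and rule were chosen with earlier results of these data known. Sequences were read with Biopython 1.88 from the TAIR10.1 RefSeq genome.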

Additional observations from a re-analysis of the deposited data

Results flagged for a closer look

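In 3 groups of 4 libraries, 1 library stood far from the others by Dixon's test; with 40 groups of 4 tested, chance flags about 1 in 20. ARR3 was at 36.9 CPM in WT root replicate 3 against 44.3 to 44.7 in the other WT roots. ARR7 was at 16.8 CPM in 41-OX root replicate 4 against 9.21 to 9.94 in the other 41-OX roots, in the library whose summed shoot markers, 1865 CPM, were the highest of the roots; their part in the ARR7 value was not tested. ARR16 was at 14.5 CPM in 41-OX shoot replicate 1 against 9.18 to 9.94 in the other 41-OX shoots.

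The change from WT to 41-OX differed between organs for 4 regulators, by edgeR's test of the difference, root minus shoot: ARR3 (-3.17), ARR16 (-1.76), ARR8 (-0.53) and ARR9 (0.50). In the left-out library labelled pxy root replicate 2, ARR7 was at 34.4 CPM by library total against 10.6 to 24.8 in WT roots, and ARR9 at 115.1 against 90.0 to 100.8. That library held summed root markers of 142.6 CPM by library total against 1148 to 1295 in WT roots.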

How the results depend on the processing

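Over 3401 refits of single genes named here, 3223 kept direction and side of the threshold, 137 were no longer called, 40 became called and 1 turned: GNC in 41-OX against pxy roots, which went to a log2 change of -2.10 (adjusted p = 0.385) with all labelled libraries put back. Between pxy and WT shoots the count of regulators called went from 0 to 1 without a filter, to 3 in DESeq2, to 1 without robust dispersions and to 1 with all 22 libraries in 1 fit, and to between 0 and 4 on leaving out a library. Between pxy and WT roots it was 1 in DESeq2. For 41-OX against WT roots it was 2 in DESeq2, 2 with only the compared groups and 1 to 2 on leaving out a library. For the organ difference of the pxy change it was 2 in DESeq2 and 0 to 2 on leaving out a library. With all labelled libraries put back it was 1 for 41-OX against pxy roots and 2 for the organ difference of the 41-OX change. For 41-OX against pxy shoots it was 2 to 5 on leaving out a library. In 41-OX against WT shoots it ran from 5 to 8 on leaving out a library, and ARR3, ARR5, ARR7, ARR8 and ARR9 were called in each of these fits. The highest counts of these shoot comparisons, 5 against pxy and 8 against WT, include ARR17, which passed the low-count filter in some of the fits. Counts over all loci that moved most were those of 41-OX against WT roots (1332, from 137 with all libraries put back to 2382 with only the compared groups) and against pxy roots (1983, from 230 to 3276), pxy against WT roots (8, from 1 to 89) and shoots (343, from 143 to 514), and the organ difference of the pxy change (2, from 1 to 47) and of the 41-OX change (3418, from 402 to 3785). Same-numbered libraries of an organ deviated together in 3 of 20 pairs, against 15 of 60 with other numbers. Between organs it was 4 of 31 against 6 of 90, and 5 of 22 libraries correlated best with their own number. With groups of 3 or 4 libraries these values cannot decide whether the numbers mark shared samples or batches. With a replicate block 6 regulators were called in 41-OX against WT shoots and 4 in 41-OX against pxy roots. Levels without TMM factors moved beyond 1 SD in 18 of 60 cases, and coding length in place of exon length moved 18 of 60 ranks. The cause of these shifts was not tested. ARR17 had 0 to 13 reads in each shoot library used, too few for the shoot test. Without a filter it was called higher in 41-OX than in WT shoots (log2 change 2.81, adjusted p = 0.000741). It was also called with all 22 libraries in 1 fit (2.83, adjusted p = 0.0134). Both values rest on these few reads.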

Other observations

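The left-out library labelled pxy root replicate 2 also had ARR3 at 3.48 CPM by library total, with 27 reads, and ARR8 at 51.6 CPM. In the left-out WT shoot replicate 2, a count of 0 allows up to 17.9 CPM, so the 0 reads of ARR3, ARR15, ARR16 and ARR17 there say little about their levels.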
